A study of Mus musculus with 2 samples.

Results

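The genes of MHC class I presentation described here were *H2-K1*, *H2-D1*, *H2-Q7*, *B2m*, *Tap1*, *Tap2*, *Tapbp*, *Nlrc5*, *Psmb8* and *Psmb9*, the side of antigen presentation that CD8+ T cells read. They were chosen by symbol as 10 of the 27809 genes of the deposited matrix, and all 10 passed the filters on low values. CD45+ cells, which are the leukocytes, had been isolated from mouse hearts 1 week after sham surgery or transverse aortic constriction (TAC), an operation that narrows the aorta and loads the left ventricle with pressure. The cells of each group carried a hashtag, a tag that marks the group of origin, and a single BD Rhapsody library pooled all groups.

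The 5 hashtag groups were wild-type (WT) sham, CD3e-/- sham, WT TAC, CD3e-/- TAC and WT TAC with an antibody to CD8. All mice were males on a C57BL/6 background and aged 8 weeks per the methods. CD3e-/- mice lack a chain of the T cell receptor complex in every tissue from birth, and thereby lack mature T cells. How many hearts were pooled under each hashtag was not given in the sources used here. Values below follow the order WT sham, CD3e-/- sham, WT TAC, CD3e-/- TAC and the group labelled CD8-depleted TAC unless a group is named. Each condition was 1 hashtag group without replicates, so no test between conditions was possible, and conditions are compared by value only.

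MHC class I molecules consist of a heavy chain, encoded by genes such as *H2-K1* and *H2-D1*, and of beta-2 microglobulin, encoded by *B2m*, and they carry peptides from the cytosol to the cell surface for inspection by CD8+ T cells. The immunoproteasome cuts the peptides, the TAP transporter moves them into the endoplasmic reticulum, and tapasin holds the empty heavy chain close to the transporter. Interferons are known to induce the pathway, partly through the transactivator NLRC5, and in the heart macrophages, monocytes, dendritic cells and B cells all carry class I molecules.

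The upstream sequences of *H2-D1*, *B2m* and *Tap1* are shown because they carry the elements through which heavy chain, light chain and transporter genes are known to be read. RefSeq held such sequences for 8 of the 10 genes in GRCm38.p6 (*Tap2* and *Nlrc5* were absent from the table). The 250 bases before the start site are printed 5′ to 3′ on the strand of the gene, at chr17:35262844-35263093 (plus strand) for *H2-D1*, chr2:122147437-122147686 (plus strand) for *B2m* and chr17:34187306-34187555 (plus strand) for *Tap1*. Capitals mark matches on either strand to the kB element GGGATTCCC, the interferon regulatory factor core AANNGAAA, the cyclic AMP response element core TGACG and the CCAAT box. Capitals also mark the interferon-stimulated element GAAANNGAAA, which always overlaps an interferon regulatory factor core.
H2-D1: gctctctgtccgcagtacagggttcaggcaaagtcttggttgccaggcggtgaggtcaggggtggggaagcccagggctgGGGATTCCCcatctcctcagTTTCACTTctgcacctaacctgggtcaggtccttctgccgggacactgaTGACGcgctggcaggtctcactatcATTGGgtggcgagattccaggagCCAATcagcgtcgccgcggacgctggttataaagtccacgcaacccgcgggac
B2m: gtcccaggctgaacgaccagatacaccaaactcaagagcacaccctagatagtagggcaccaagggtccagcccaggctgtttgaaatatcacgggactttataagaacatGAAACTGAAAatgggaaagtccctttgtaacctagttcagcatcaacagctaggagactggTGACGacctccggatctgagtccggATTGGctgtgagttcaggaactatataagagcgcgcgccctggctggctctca
Tap1: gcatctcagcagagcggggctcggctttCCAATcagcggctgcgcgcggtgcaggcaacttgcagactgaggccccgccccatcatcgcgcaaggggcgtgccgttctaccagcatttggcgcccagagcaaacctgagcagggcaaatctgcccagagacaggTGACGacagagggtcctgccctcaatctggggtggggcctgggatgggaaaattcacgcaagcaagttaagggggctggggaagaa

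The kB element was found in the windows of the 3 heavy chain genes, *H2-D1*, *H2-K1* and *H2-Q7*, against 0.301% of all 32851 promoter windows of this length. *B2m*, the light chain gene, held the interferon-stimulated element (2.98% of all windows). The interferon regulatory factor core was present in 4 of 8 genes, namely the heavy chains and *B2m* (21.3% of all windows). The CRE core was found in 6 of 8 genes (17.8% of all windows) and the CCAAT box in 7 of 8 (33.8%). *Psmb8* alone held TTCNNNGAA, a GAS element, which 7.02% of all windows hold. *Tap1* and *Psmb9* lie head to head with 225 bases between their start sites, so that the windows of the transporter gene and of the immunoproteasome gene *Psmb9* overlap. Their CRE core matches are the same bases, as are their CCAAT box matches, so the counts above hold these sites under both genes. These are matches of letters only, to motifs chosen with the sequences in view.

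Cells were sorted into classes by the counts per 1000000 reads (CPM) of marker genes in each cell. A parent gate of monocytes and macrophages took cells with at least 100 CPM of *Csf1r* and 1000 CPM of *Lyz2* and low *Cd79a*, *Xcr1* and *Cd209a*. Inside it, the Lyve1 gate (*Lyve1* of at least 100 CPM) stood for resident macrophages, the Ly6c2 gate (*Ly6c2* of at least 500 CPM) for monocytes, and the double-low gate took cells below both limits. The Cd209a gate (at least 200 CPM), the Xcr1 gate (at least 50 CPM) and the Cd79a gate (at least 500 CPM) were set outside, for dendritic cells and B cells. The Xcr1 and Cd79a gates took no cell that reached both the *Csf1r* and the *Lyz2* limit. The Cd209a gate took such cells too, and the parent gate left them out. Marker lists whose genes the gates had not used were highest in the gate of that name for 4 of these cell types. The resident macrophage list (*Folr2*, *Cbr2*, *Cd163*, *Timd4*, *Gas6* and *Mrc1*) summed to 4624 to 7480.03 CPM in the Lyve1 gate and 109 to 268 CPM in the Ly6c2 gate, while the monocyte list was highest in the Ly6c2 gate with 6755 to 7990.5 CPM. The list of type 1 dendritic cells was highest in the Xcr1 gate (6197 to 8172 CPM) and the B cell list in the Cd79a gate (3790.3 to 5192 CPM). The list of type 2 dendritic cells was lower in the Cd209a gate (619 to 1123 CPM) than in the Xcr1 gate (1015 to 2006 CPM), so the Cd209a gate is called by its gene alone. The Cd209a gate also held 414 to 569 CPM of the resident macrophage list and 1677 to 2397 CPM of the monocyte list. The T cell list had 10.4 to 200.4 CPM in the Cd209a gate (median 129.9 CPM), the highest median of the 6 gates. The lists of innate lymphoid cells (92.9 to 247 CPM) and NK cells (0.379 to 69.7 CPM) also had their highest medians there. The fibroblast list reached 1608 CPM in the highest group of the Ly6c2 gate (median 1.32 CPM). It reached 698 CPM in that of the Xcr1 gate (median 0.661 CPM) and 268 CPM in that of the Cd209a gate (median 0.406 CPM). The part of such reads in the values of these gates was not tested.

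Of 5315 hashtagged cells, 5263 were kept, with 1000, 835, 1615, 919 and 894 cells per group, 91899777 to 208758777 reads per group and no barcode in more than 1 group. The parent gate held 573, 462, 1125, 670 and 628 cells. The Ly6c2 gate took 2.4%, 4.19%, 9.97%, 18.4% and 16.1% of all cells of a group, and the Lyve1 gate 7.5%, 3.71%, 3.16%, 1.63% and 3.47%. Of the 3458 cells of the parent gate, 258 lay between 250 and 1000 CPM of *Ly6c2* and 21 between 50 and 200 CPM of *Lyve1*, close to a limit. The targeted gene *Cd3e* had 17.8, 3.73, 10.8, 5.64 and 13.6 CPM over all cells, and which part of the gene these reads cover is not known here. *Cd3g*, another T cell receptor chain, had 45.6, 0.555, 17.5, 0.0661 and 22.5 CPM. *Cd8a* had 9.81, 0.979, 7.40, 0.558 and 6.55 CPM, so the group labelled CD8-depleted TAC still had *Cd8a* reads close to the level of WT TAC, and its name is used as a label only. RNA of 1 gene over all cells is not a count of CD8+ T cells, and *Cd8a* was also read in the Cd209a and Xcr1 gates. The paper counted T cells in hearts by flow cytometry. It reports that the deletion of CD8+ T cells left the number of CD4+ T cells unaffected.

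Among the 6 gates, monocytes of the Ly6c2 gate had more of 9 of the 10 members than resident macrophages of the Lyve1 gate. Type 1 dendritic cells of the Xcr1 gate had more of *H2-Q7*, *Nlrc5* and the 5 transporter, tapasin and immunoproteasome genes, and less of *H2-K1*, *H2-D1* and *B2m*. Gates were compared by summed counts with the hashtag groups as blocks in edgeR's quasi-likelihood test, adjusted by Benjamini-Hochberg over 16509 genes. These p-values measure the spread over 5 hashtag groups of 1 library that also differ in genotype and surgery. Intervals on levels are exact 95% Poisson intervals and cover counting error only, which they understate because reads of 1 molecule are not independent.

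**Figure D1:**
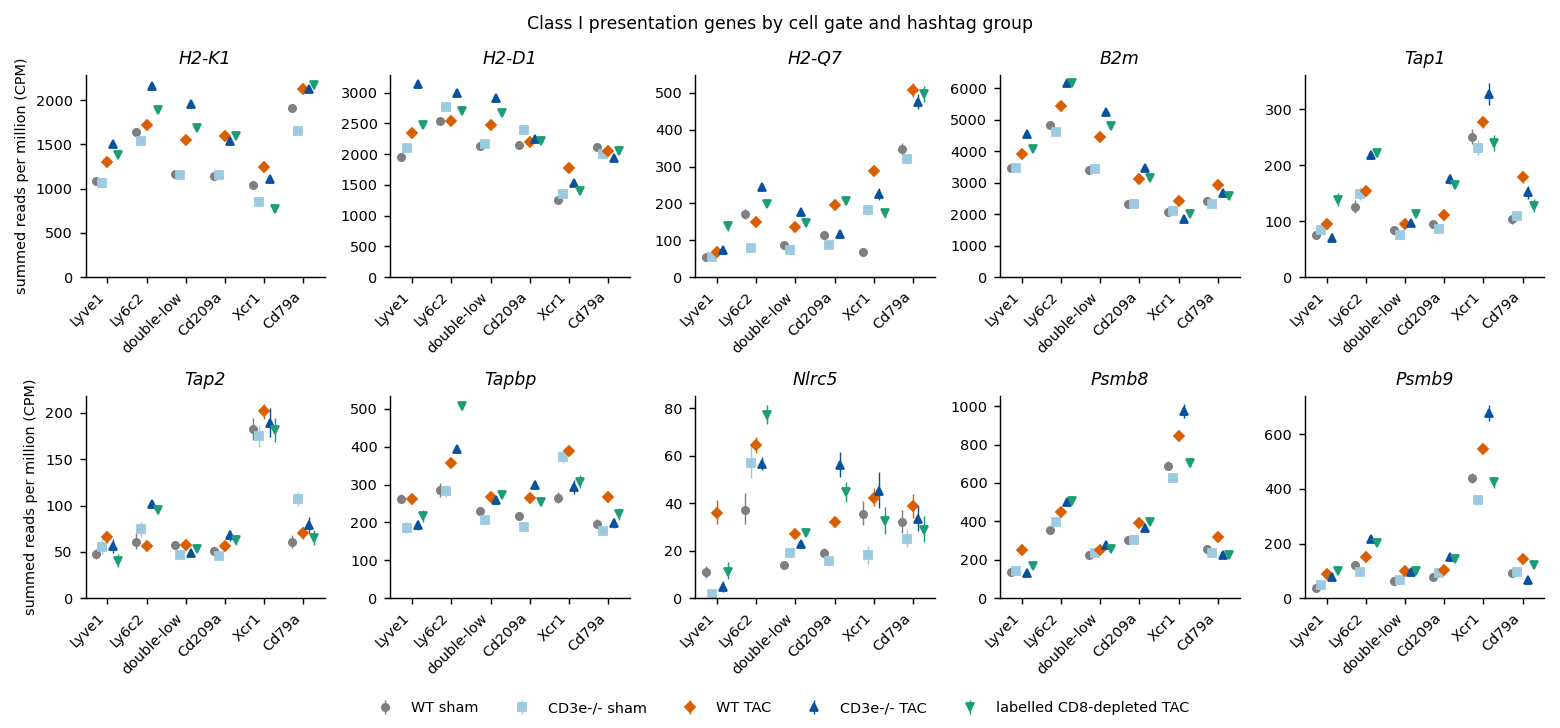
Summed CPM (linear axes from 0) of the 10 genes in 6 cell gates, 1 point per hashtag group, with exact 95% Poisson intervals as bars. *Psmb8*, *Psmb9*, *Tap1* and *Tap2* lie highest in the Xcr1 gate, *H2-Q7* in the Cd79a gate and *Nlrc5* in the Ly6c2 gate, where its 5 groups run from 37.4 to 77.2 CPM.

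Heavy chains came first. *H2-K1*, a classical class I heavy chain, had 1090.05, 1057, 1296, 1502 and 1384 CPM in the Lyve1 gate and 1644, 1533, 1723, 2159 and 1886 CPM in the Ly6c2 gate. The ranges did not overlap, and *H2-K1* was higher in the Ly6c2 gate in 5 of 5 groups (log2 fold change 0.55 ± 0.10, SE, edgeR adjusted p = 0.000351). In the Xcr1 gate it had 1036, 845, 1241, 1103 and 767 CPM, below the Lyve1 gate in 5 of 5 groups (log2 -0.35 ± 0.10, edgeR adjusted p = 0.0119). B cells of the Cd79a gate had the highest *H2-K1* with 1906, 1647, 2128, 2129 and 2167 CPM (log2 0.45 ± 0.10 over the Lyve1 gate, edgeR adjusted p = 0.00108). Neighbours in the order Cd79a, Ly6c2, double-low, Cd209a, Lyve1 and Xcr1 all overlapped in range.

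*H2-D1*, the other classical heavy chain, was at a similar level in most gates. It had 1952, 2102, 2339.9, 3139.8 and 2481 CPM in the Lyve1 gate, and 2537, 2767, 2532, 2988 and 2697 CPM in the Ly6c2 gate. The 2 ranges overlapped and the difference did not pass the test (log2 0.23 ± 0.10, edgeR adjusted p = 0.101). The Xcr1 gate stood apart at the low end with 1260.5, 1355, 1771, 1534 and 1394 CPM, below the range of every other gate (log2 -0.73 ± 0.10 against the Lyve1 gate, edgeR adjusted p = 2.72e-06).

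*H2-Q7*, a non-classical heavy chain, was highest in B cells among the 6 gates. It had 347, 319, 507, 475 and 496 CPM in the Cd79a gate and 53.7, 54.1, 67.9, 73.4 and 138 CPM in the Lyve1 gate, and it was higher in 5 of 5 groups (log2 2.30 ± 0.25, edgeR adjusted p = 1e-07). All Cd79a gate values lay above those of the other gates. It was also higher in the Xcr1, Ly6c2 and Cd209a gates than in the Lyve1 gate (log2 1.28, 1.20 and 0.91, edgeR adjusted p = 0.000287, 0.00103 and 0.00958). Heavy chain genes are near-identical in sequence, so reads may be shared among *H2-K1*, *H2-D1*, *H2-Q7* and its neighbour *H2-Q6*, and levels of single heavy chains are uncertain to that extent. *H2-Q6* was likewise higher in the Cd79a gate (log2 2.82 ± 0.33, edgeR adjusted p = 3.04e-07).

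*B2m*, the light chain shared by all class I molecules, had 3447.6, 3448, 3920.2, 4556 and 4062 CPM in the Lyve1 gate and 4813, 4620.4, 5432, 6169 and 6172 CPM in the Ly6c2 gate. These ranges did not overlap, and it was higher in 5 of 5 groups (log2 0.54 ± 0.09, edgeR adjusted p = 0.000175). The lowest *B2m* was in the Xcr1 gate with 2076, 2096, 2407, 1850.3 and 2018 CPM (log2 -0.89 ± 0.09, edgeR adjusted p = 5.43e-08). It was lower than in the Lyve1 gate also in the Cd79a gate (log2 -0.80) and in the Cd209a gate (log2 -0.44), in 0 of 5 groups higher in either. Every pair of neighbouring gates in the order Ly6c2, double-low, Lyve1, Cd209a, Cd79a and Xcr1 overlapped.

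The transporter and its partner were ordered otherwise. *Tap1*, a subunit of the peptide transporter, had 250.4, 231, 277, 327 and 239.6 CPM in the Xcr1 gate and 76.0, 85.0, 94.4, 70.0 and 138 CPM in the Lyve1 gate, without overlap (log2 1.52 ± 0.17, edgeR adjusted p = 1.17e-07). *Tap2*, its partner subunit, had 182, 175, 202, 189 and 182 CPM in the Xcr1 gate, while no sum of another gate exceeded 107 CPM. Its difference from the Lyve1 gate was 1.79 ± 0.18 on the log2 scale (edgeR adjusted p = 2.3e-08) and ran from 1.48 to 1.93 over the 5 groups as log2 ratios of CPM with 10 CPM added. *Tapbp*, which encodes tapasin, was highest in the Ly6c2 gate with 285, 282, 356, 393 and 507 CPM, against 263, 186, 261, 193 and 216 CPM in the Lyve1 gate (log2 0.74 ± 0.14, edgeR adjusted p = 0.000488). Its Ly6c2 and Xcr1 gate ranges overlapped.

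*Nlrc5*, the class I transactivator, was low everywhere and highest in monocytes. It had 37.4, 57.2, 64.5, 56.7 and 77.2 CPM in the Ly6c2 gate and 10.95 (73 reads), 1.59 (5 reads), 35.9, 4.72 (18 reads) and 11.1 CPM in the Lyve1 gate. This was the largest fold among the members for monocytes (log2 2.46 ± 0.43, edgeR adjusted p = 0.000209), higher in 5 of 5 groups and without overlap. WT TAC was the group in which the Lyve1 gate came closest to the other gates. *Nlrc5* was also higher in the Xcr1, Cd209a and Cd79a gates than in the Lyve1 gate (log2 1.58, 1.51 and 1.30, edgeR adjusted p = 0.00559, 0.0128 and 0.0163).

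The immunoproteasome subunits *Psmb8* and *Psmb9* had the largest fold changes of the members between the Xcr1 and Lyve1 gates. *Psmb9* had 440.1, 358, 548, 678 and 423 CPM in the Xcr1 gate and 38.4, 49.0, 89.9, 79.2 and 99.3 CPM in the Lyve1 gate (log2 2.82 ± 0.21, edgeR adjusted p = 2.73e-10). *Psmb8* had 689.6, 627, 845, 975 and 706 CPM in the Xcr1 gate, 354, 398, 447, 502 and 508 CPM in the Ly6c2 gate, and 137, 141, 252, 132 and 166 CPM in the Lyve1 gate. No Lyve1 gate value reached the lowest value of the Ly6c2 gate, and none of the Ly6c2 gate reached the Xcr1 gate. The fitted differences of *Psmb8* from the Lyve1 gate were 2.21 ± 0.14 and 1.48 ± 0.14 on the log2 scale (edgeR adjusted p = 1.63e-11 and 4.94e-08). *Psmb5*, *Psmb6* and *Psmb7*, the standard subunits that the induced ones replace, showed smaller differences, of which only *Psmb7* passed the test in these 2 gates (log2 0.85 and 0.56).

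**Figure D2:**
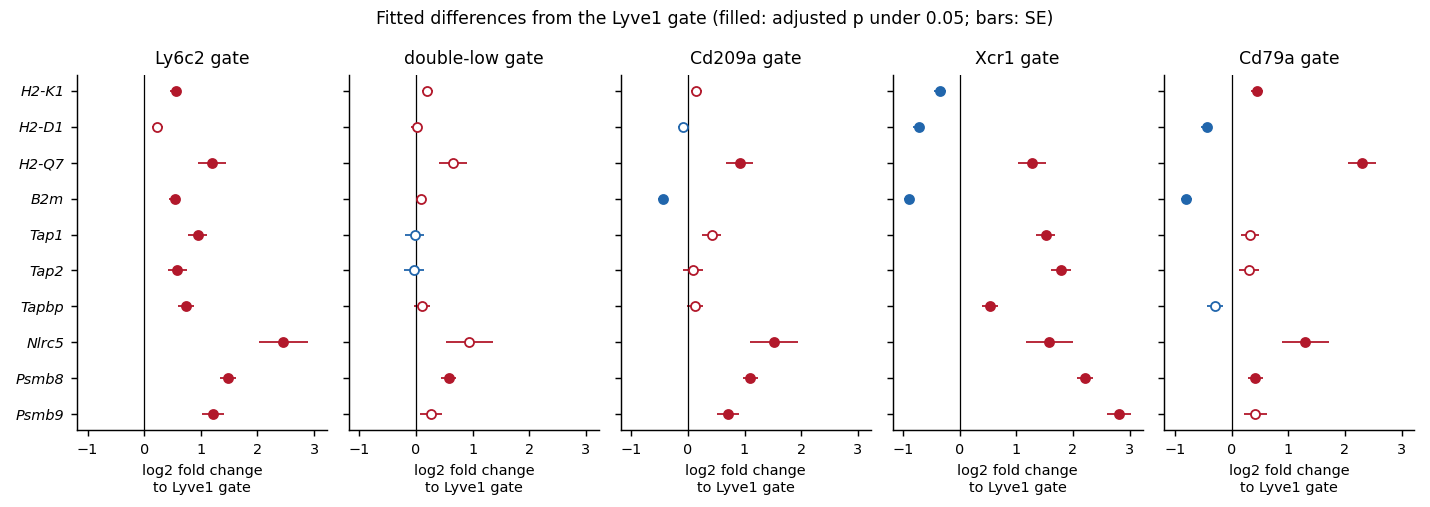
Fitted log2 fold change of each gene between 5 gates and the Lyve1 gate, with SE as bars, filled where the edgeR adjusted p was under 0.05. *H2-K1*, *H2-D1* and *B2m* lie left of 0 in the Xcr1 gate while the other 7 genes lie right of it, up to 2.82 for *Psmb9*.

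By counts, 9 of 10 members were higher in the Ly6c2 gate than in the Lyve1 gate and 0 lower, where 11.1% of all tested genes were higher and 8.25% lower. The median log2 fold change was 0.84 for the members and 0.08 for all genes. *Tap2* lost its call without CD3e-/- TAC, without the group labelled CD8-depleted TAC or without WT sham (edgeR adjusted p = 0.0918, 0.196 and 0.0692) and with gate limits at 2 times (0.0657). *H2-D1* gained one without CD3e-/- TAC or with sums of at least 20 cells (edgeR adjusted p = 0.0212 and 0.0151). In the Xcr1 gate 7 members were higher and 3 lower (14.2% and 14.8% of all genes), with a median of 1.40 against 0.01 for all genes. There the call of *H2-K1* was lost without CD3e-/- TAC or the group labelled CD8-depleted TAC (edgeR adjusted p = 0.0747 and 0.0922), and that of *Tapbp* without CD3e-/- sham (edgeR adjusted p = 0.0605). The difference of *H2-K1* was also not called with sums of at least 20 cells (log2 -0.15, edgeR adjusted p = 0.264), upper-quartile scaling (log2 -0.23, 0.0951) or no low-count filter (log2 -0.32, 0.0548). Of 6 reference genes, 3 were higher and 2 lower in the Ly6c2 gate, for example *Actb* (log2 0.44) and *Hprt* (log2 -0.48). In the Xcr1 gate 3 were higher and 1 lower, for example *Rpl13a* (log2 1.10) and *Hprt* (log2 -0.74). Their part in these results was not tested.

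In the Cd79a gate 4 members were higher (*H2-Q7*, *Nlrc5*, *H2-K1* and *Psmb8*) and 2 lower (*B2m* and *H2-D1*), where 17.5% of all genes were higher and 20.4% lower. With upper-quartile scaling the split was 7 higher and 1 lower. Of 6 reference genes, 4 were lower in this gate and 1 higher, for example *Actb* (log2 -1.04) and *Rpl13a* (log2 1.61), and their part in the result was not tested. The calls of *Nlrc5* and *Psmb8* were lost without CD3e-/- sham (edgeR adjusted p = 0.0650 and 0.0674) or WT sham (0.0560 and 0.134), and that of *Nlrc5* also without CD3e-/- TAC (0.0511). With sums of at least 20 cells both were lost (edgeR adjusted p = 0.0658 and 0.0536), and with gate limits at 2 times that of *Psmb8* (0.0604). *Psmb9* was gained without CD3e-/- TAC (edgeR adjusted p = 0.00947) and *Tap1* without the group labelled CD8-depleted TAC (edgeR adjusted p = 0.0206).

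In the Cd209a gate 4 members were higher (*Nlrc5*, *Psmb8*, *H2-Q7* and *Psmb9*) and *B2m* was lower, against 10.7% and 7.4% of all genes. *Psmb8* was higher by 1.10 ± 0.13 on the log2 scale and kept its call under 12 of 12 alternatives. *H2-Q7* was lost without WT TAC, *Nlrc5* without CD3e-/- TAC or the group labelled CD8-depleted TAC, and *Psmb9* without CD3e-/- sham or WT sham (edgeR adjusted p = 0.0799, 0.123, 0.0862, 0.0774 and 0.0677). *Nlrc5* was also lost with sums of at least 20 cells (edgeR adjusted p = 0.0567). The double-low gate differed least from the Lyve1 gate, with *Psmb8* higher (log2 0.57 ± 0.13, edgeR adjusted p = 0.0136) and 0 members lower, where 2.9% of all genes were higher and 0.727% lower. That call was lost without CD3e-/- sham, the group labelled CD8-depleted TAC or WT sham (edgeR adjusted p = 0.0937, 0.0682 and 0.0919).

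Other genes of the pathway were read from a list of 20. In the Ly6c2 gate 5 of 20 were higher than in the Lyve1 gate and 0 lower, namely *Psme1* and *Psme2* (log2 1.05 and 1.01), which encode the PA28 proteasome activator, the third inducible subunit gene *Psmb10* (0.93), and the non-classical heavy chains *H2-T22* and *H2-T23* (1.55 and 1.02). In the Xcr1 gate 8 were higher and 1 lower, with *Psme1* at 1.84 ± 0.11 (edgeR adjusted p = 4.72e-12), while the chaperone gene *Canx*, for calnexin, was lower by 0.27. *Psmb10* did not pass the test in that gate (log2 0.12 ± 0.19, edgeR adjusted p = 0.692), unlike *Psmb8* and *Psmb9*. Among 8 genes of the interferon-gamma response 7 were higher in the Ly6c2 gate, and likewise 7 of 8 of the type I interferon response, with *Irf7* at 4.05 ± 0.47 (edgeR adjusted p = 1.19e-06). In the Xcr1 gate the type I list had 2 higher (*Mx1* and *Irf7*) and 2 lower (*Oas1a* and *Ifit3*).

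TAC was compared with sham in the parent gate within each genotype, the question being how pressure overload changed class I genes with and without T cells. In the summed counts of this gate every member was higher after TAC in both genotypes, whereas single gates inside it had exceptions, given further on. *H2-K1* had 1184 CPM (1175 to 1194) in WT sham and 1572 CPM (1566 to 1579) in WT TAC, and 1178 and 1988 CPM in CD3e-/- sham and TAC. The log2 ratios, with 10 CPM added to both sides, were 0.41 in WT and 0.75 in CD3e-/-. *H2-D1* had 2137, 2209.7, 2476.5, 2938 and 2662 CPM (log2 0.21 and 0.41). *B2m* had 3499, 3531, 4585, 5464 and 5093.5 CPM (log2 0.39 and 0.63). The sham groups of both genotypes lay below all TAC groups for these chains.

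*H2-Q7* had 88.9, 72.7, 136, 190.4 and 159.6 CPM, with log2 ratios of TAC to sham of 0.56 in WT and 1.28 in CD3e-/-, the largest of the members in CD3e-/-. *Nlrc5* had 15.1, 21.4, 33.2, 31.2 and 38.9 CPM, a ratio of 2.21 in WT without an added constant (log2 0.79 with 10 CPM added) and of 1.45 in CD3e-/- (log2 0.39). *Psmb9* had 64.6, 69.2, 106, 127 and 124 CPM (log2 0.63 and 0.79), and *Psmb8* 223, 242, 281, 331 and 312 CPM (log2 0.32 and 0.43). For each of these genes too the 3 TAC groups lay above both sham groups. The standard subunits *Psmb5*, *Psmb6* and *Psmb7* had 0 of 3 past 1.5-fold in either genotype.

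*Tap1* had 85.7, 82.7, 104, 127 and 141 CPM (log2 0.25 and 0.56) and *Tapbp* 239, 212, 280.3, 291 and 327 CPM (log2 0.22 and 0.44). *Tap2* was nearly level in WT, with 56.4 and 57.3 CPM (log2 0.02), and went from 49.9 to 63.1 CPM in CD3e-/- (log2 0.29). With the mean of CPM per cell in place of summed counts, *Tap2* had a log2 ratio of -0.16 in WT. The peptide transporter subunits thus differed in how far they stood apart between WT sham and WT TAC.

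In WT, 2 members (*Nlrc5* and *Psmb9*) were past 1.5-fold between TAC and sham (*H2-Q7* lay just under it), where 6.35% of all 7057 measured genes were past it, and 10 of 10 were higher by any amount, where 56.5% of all genes were. In CD3e-/-, 4 members (*H2-Q7*, *Psmb9*, *H2-K1* and *B2m*) were past 1.5-fold (8.75% of all genes) and 10 of 10 higher (58.5%). The median log2 ratio of the members was 0.35 in WT and 0.50 in CD3e-/-, beside 0.03 and 0.05 for all genes. The type I interferon list had 8 of 8 genes past 1.5-fold in both genotypes, with medians of 1.70 and 1.83. *Isg15*, for example, had 49.2, 60.2, 168, 269 and 328 CPM. Of the interferon-gamma list 3 of 6 measured genes in WT and 4 of 6 in CD3e-/- were past 1.5-fold and higher, among them *Gbp2* and *Cxcl9*, while *Irf1* was lower with 212, 197, 115, 104 and 132 CPM. In the Ly6c2 gate alone the interferon-gamma list of WT had 1 of 8 genes past 1.5-fold higher and 4 of 8 lower (median -0.50), and the type I list 4 of 8 higher (median 0.54). In CD3e-/- these lists had 5 of 8 higher and 1 lower (median 0.90) and 8 of 8 higher (median 1.46) in that gate. The sham groups already differed there, with medians of -0.40 and -0.63 for these lists in CD3e-/- sham against WT sham. In CD3e-/- TAC against WT TAC the medians were 0.42 and 0.03. The Ly6c2 gate held only 24 cells in WT sham and 35 in CD3e-/- sham. The share of all genes past 1.5-fold was not computed in single gates. *Ifng* itself, the ligand, had 95.5, 39.2, 30.4, 26.3 and 44.8 CPM in the cells outside all gates and 0 to 3.9 CPM in the parent gate.

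The share of Ly6c2 gate cells moved with these contrasts, as given above, and so did depth, with medians of 75419, 80980.5, 99616, 127033 and 104107 reads per cell of the parent gate. In the double-low gate alone, a comparison chosen after the data had been seen, 9 of 10 members were higher in WT TAC than in WT sham (56.9% of all genes) with a median of 0.29, and 10 of 10 in CD3e-/- TAC (59.4%) with a median of 0.37. In the Ly6c2 gate 7 of 10 members were higher in WT TAC (53.1% of all genes, median 0.22), the exceptions being *H2-D1*, *H2-Q7* and *Tap2*, and 9 of 10 in CD3e-/- TAC (50% of all genes, median 0.44), the exception being *Nlrc5*. In the Lyve1 gate 9 of 10 were higher in WT TAC (48.7%, median 0.28), without *Tapbp*, and 8 of 10 in CD3e-/- TAC (53.3%, median 0.36), without *Tap1* and *Psmb8*. *Nlrc5* was counted as higher in CD3e-/- TAC there, though it lay under 20 CPM in both groups, the floor for the share of all genes. With equal weight for the Lyve1, Ly6c2 and double-low gates, the medians were 0.23 and 0.34 and 10 of 10 members were higher in both. The share of all genes that were higher was not computed at equal weight, so this count has no background. Over all 6 gates *H2-K1* was higher after TAC in 6 of 6 in both genotypes, *B2m* in 6 of WT and 5 of CD3e-/-, and *H2-Q7* in 5 and 6. *H2-D1* was higher in 4 of 6 gates in both genotypes. Among the other members *Tap1*, *Nlrc5* and *Psmb9* were higher in 6 gates of WT and 5 of CD3e-/-, *Psmb8* in 6 and 4, *Tapbp* in 5 and 5, and *Tap2* in 4 and 5.

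**Figure D3:**
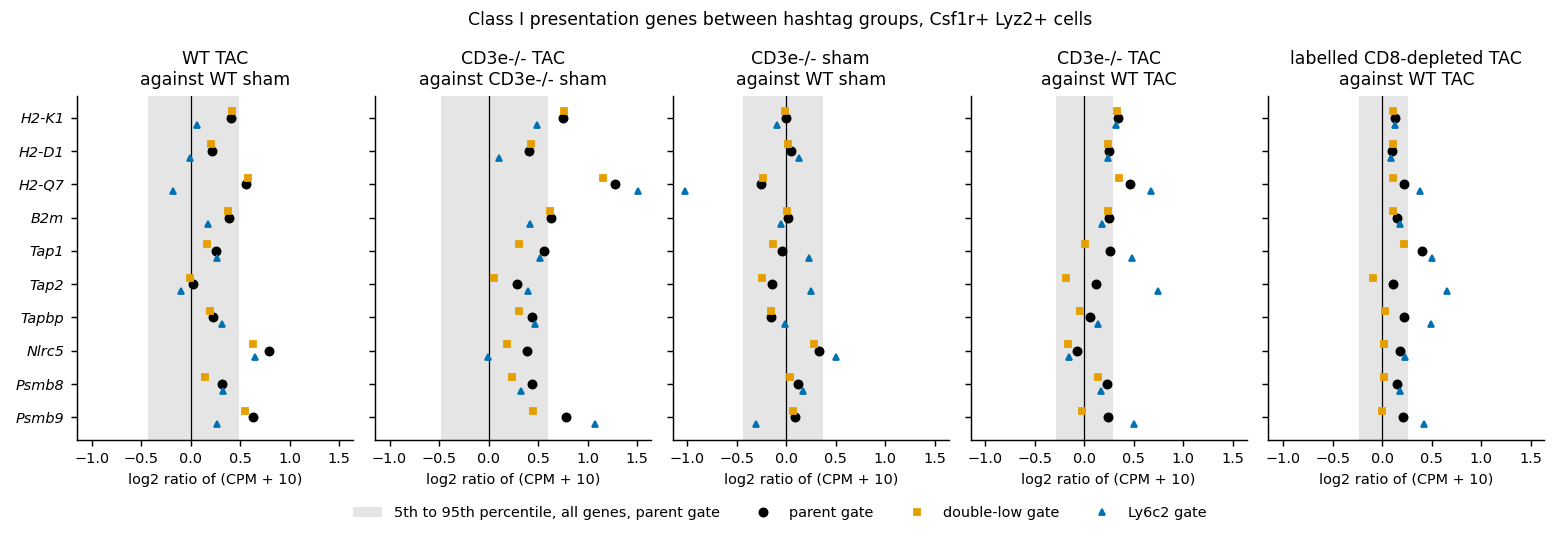
Log2 ratios of (CPM + 10) between hashtag groups in the parent gate (circles), the double-low gate (squares) and the Ly6c2 gate (triangles), with the 5th to 95th percentile of all genes in the parent gate shaded. For TAC against sham *Nlrc5* and *Psmb9* in WT and *H2-Q7*, *Psmb9*, *H2-K1* and *B2m* in CD3e-/- are circles to the right of the shading, as is *H2-Q7* in WT.

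Between genotypes after sham surgery the members showed no common shift in the parent gate. In sham hearts 0 of 10 members were past 1.5-fold between CD3e-/- and WT (3.37% of all genes) and 5 of 10 were higher (46.1% of all genes), with a median log2 ratio of 0.00. *Nlrc5* was the farthest up (log2 0.33) and *H2-Q7* the farthest down (log2 -0.26). *H2-K1*, *H2-D1* and *B2m* lay between -0.01 and 0.05. In single gates the log2 ratios of the members ran wider, from -1.02 to 0.50 in the Ly6c2 gate and -0.85 to 0.29 in the Lyve1 gate. They ran from -0.71 to 1.27 in the Xcr1 gate and from -0.26 to 0.72 in the Cd79a gate. The lowest ratio of the Lyve1 gate was that of *Nlrc5*, which lay under 20 CPM in both groups.

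The absence of T cells was compared after TAC. Class I chains were higher in CD3e-/- TAC than in WT TAC in the parent gate, with log2 ratios of 0.34 for *H2-K1*, 0.25 for *H2-D1*, 0.25 for *B2m* and 0.46 for *H2-Q7*. Among the transporter, tapasin and immunoproteasome genes *Tap1* had 0.26, *Psmb9* 0.24 and *Psmb8* 0.23, while *Tap2* and *Tapbp* had 0.12 and 0.05 and *Nlrc5* was lower at -0.07. None of the 10 was past 1.5-fold (1.59% of all genes), and 9 of 10 were higher (49.7%), with a median of 0.24 beside 0.00 for all genes.

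With the label CD8-depleted TAC, 0 of 10 members were past 1.5-fold against WT TAC (0.896% of all genes) and 10 of 10 were higher (50.9%), with a median of 0.16. *Tap1* was the farthest up (141 against 104 CPM, log2 0.40) and *H2-D1* the least (log2 0.10). In the parent gate the type I interferon list had 6 of 8 genes past 1.5-fold and higher in this comparison, and 1 of 8 in CD3e-/- TAC. In the Ly6c2 gate these counts were 6 and 0 of 8 (medians 0.66 and 0.03). In the double-low gate they were 0 and 0 of 8 (medians 0.01 and -0.16). Both comparisons share WT TAC as the denominator, so they are not independent.

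The gates within the parent gate differed in these 2 comparisons. In the double-low gate CD3e-/- TAC had 6 of 10 members higher than WT TAC (48.3% of all genes) with a median of 0.08, where *H2-K1*, *H2-D1*, *B2m* and *H2-Q7* kept ratios of 0.33, 0.24, 0.24 and 0.35 while *Tap1*, *Tapbp* and *Psmb9* had 0.01, -0.04 and -0.03. In the Ly6c2 gate 9 of 10 were higher (48.2% of all genes) with a median of 0.28, and *Tap2* had 101 against 56.4 CPM (log2 0.75). For the group labelled CD8-depleted TAC the double-low gate had 8 of 10 higher (51.7%) with a median of 0.07, and the Ly6c2 gate 10 of 10 (47.6%) with a median of 0.30, *Tap2* again being the farthest apart (94.8 against 56.4 CPM, log2 0.66). The Lyve1 gate had 4 of 10 members higher in CD3e-/- TAC (51% of all genes) with a median of -0.18, where *Nlrc5* had the lowest ratio (log2 -1.64), and 6 of 10 under the label CD8-depleted TAC (53.6%) with a median of 0.07 and ratios from -1.12 to 0.93. With equal weight for the 3 gates, 7 of 10 members were higher in CD3e-/- TAC (median 0.19) and 8 of 10 under the label CD8-depleted TAC (median 0.12). The share of all genes was not computed at equal weight, so these counts have no background. The difference between the gates in these ratios was not tested.

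Outside the parent gate the 3 gates were not alike. In the Cd209a gate 7 of 10 members were higher in CD3e-/- TAC than in WT TAC (49.1% of all genes, median 0.16) and 9 of 10 under the label CD8-depleted TAC (52.7%, median 0.05). In B cells of the Cd79a gate 2 of 10 members were higher in CD3e-/- TAC than in WT TAC (50.4% of all genes) and 1 of 10 under the label CD8-depleted TAC (50.8%), with medians of -0.15 and -0.20. *Psmb9*, for example, had 144 CPM (135 to 154) in WT TAC and 66.9 CPM (59.6 to 74.9) in CD3e-/- TAC, the label CD8-depleted TAC giving 123 CPM (112 to 134). In the Xcr1 gate 4 of 10 members were higher in CD3e-/- TAC (52.4%) and 0 of 10 under the label CD8-depleted TAC (51.7%), where *H2-K1* had 767 against 1241 CPM. The Xcr1 gate held only 13 and 18 cells in these groups and 53 in WT TAC.

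At single-cell level *H2-D1* and *B2m* were read in every cell of the parent gate, after each cell had been thinned to 38817 reads to equalize depth. With 92, 60, 103, 46 and 45 shallower cells left out, *Psmb9* was read in 34.9% (30.7% to 39.4%), 37.3% (32.6% to 42.2%), 49.9% (46.8% to 53.0%), 61.4% (57.4% to 65.2%) and 54.9% (50.7% to 59.0%) of cells, with exact 95% binomial intervals. *H2-Q7* was read in 24.5%, 26.6%, 36.5%, 51.0% and 41.7%, and *Nlrc5* in 15.2%, 15.2%, 23.4%, 25.8% and 24.5%. Without thinning the shares were 39.3%, 42.9%, 54.0%, 67.6% and 58.9% for *Psmb9*, 24.1%, 25.3%, 35.1%, 48.8% and 41.1% for *H2-Q7* and 17.1%, 21.4%, 30.8%, 35.7% and 31.5% for *Nlrc5*. The TAC groups thus had more cells with a read of each of these genes than the sham groups at equal depth. No gate lacked class I genes, so there was no cell class to give a background share.

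**Figure D4:**
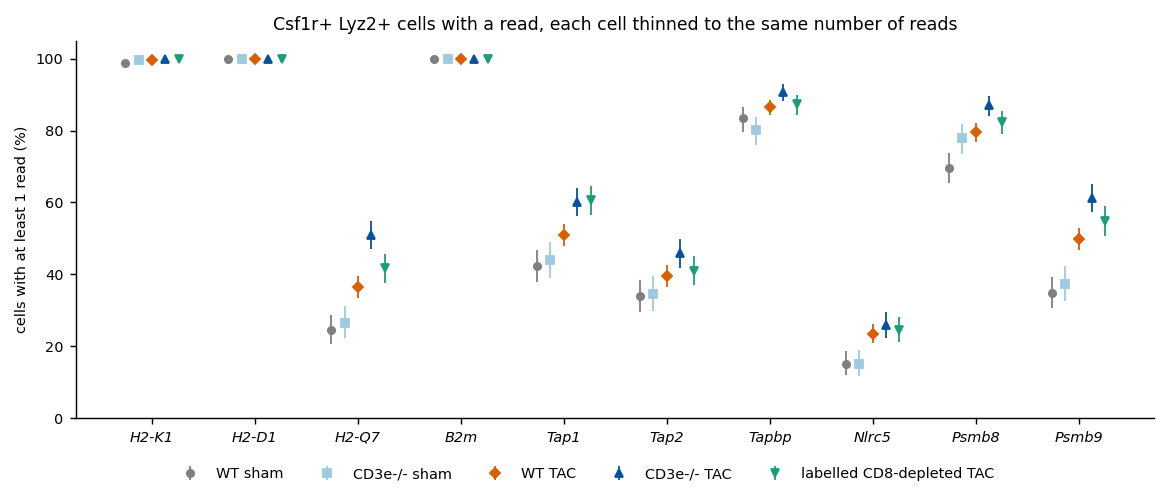
Share of parent gate cells with at least 1 read of each gene, each cell thinned to 38817 reads, per hashtag group with exact 95% binomial intervals. *H2-D1* and *B2m* are at 100%, whereas *H2-Q7*, *Nlrc5* and *Psmb9* lie lower in the 2 sham groups than in the 3 TAC groups.

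The members varied together to different degrees across 27 sums of gate and group with at least 20 cells. Pearson's r of log2(CPM + 10) was 0.91 between the immunoproteasome genes *Psmb8* and *Psmb9*, 0.89 between *Psmb9* and its neighbour *Tap1*, and 0.82 between *B2m* and *H2-D1*, but -0.61 between *Tap2* and *H2-D1*. These sums share 1 library and the groups, so r is a description. The 5 genes outside the members most like *H2-K1* among 10533 genes were *Ptpn6*, *Edem3*, *Sorl1*, *Ifi214* and *Tlr1* (r from 0.84 to 0.87). Those most like *Nlrc5* were *Sp140*, *Stat2*, *Fam241a*, *Ifi209* and *Sp110* (r from 0.83 to 0.89).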

How the data were processed

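CD45+ heart cells of 5 hashtag groups were profiled by TAS-Seq. The authors deposited counts, namely whole numbers of reads per gene and barcode without normalization, after barcode filtering at an inflection point, error correction and hashtag assignment, as the file's own name and the methods tell. The submitters' processing notes name cutadapt 2.10, Bowtie2 2.4.2 and GRCm38. Of 5363 columns, 8 without hashtag and 40 doublets called by the authors were left out, and cells with at least 500 genes and a mitochondrial share of at most 0.4 were kept. Depth was 42826 to 253456 median reads per cell over gates and groups.

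Counts were summed per gate and hashtag group. Gates were tested in edgeR 4.0.16 (glmQLFit and glmQLFTest, TMM, filterByExpr, sums of at least 5 cells, R 4.3.3), tested on simulated data first. Groups were compared by log2 ratios of CPM with 10 CPM added, among genes of at least 20 CPM in 1 of both groups, at a limit of 1.5-fold. The 10 members were counted in every gate without this floor. DESeq2 1.42.0, other scaling, filters, pseudocounts and gate limits were alternatives. Figures were drawn with matplotlib 3.10.9, and sums and intervals came from pandas 2.3.3, scipy 1.17.1 and numpy 2.4.6 in Python 3.11.15. Named genes were the 10 members, fixed lists of pathway, interferon, reference and T cell genes, and the 5 genes most like *H2-K1* and *Nlrc5*. Motifs were searched in RefSeq promoter windows. Members, lists, gates and motifs were chosen with earlier results of these data known.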

Additional observations from a re-analysis of the deposited data

Results flagged for a closer look

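The difference between CD3e-/- and WT in the parent gate went one way after TAC and the other way in sham for 4 members, each beyond the counting intervals. The values are log2 ratios of CPM without an added constant. *H2-Q7* had 0.49 in TAC and -0.29 in sham, apart by 0.78. *Tap2* had 0.14 and -0.18, apart by 0.32. *Tapbp* had 0.06 and -0.17, apart by 0.22. *Nlrc5* had -0.09 and 0.51, apart by -0.60. In the double-low gate alone *Tap2* and *Tapbp* were not higher in CD3e-/- than in WT, either after TAC or in sham. *H2-Q7* and *Nlrc5* kept their change of direction in that gate. The Ly6c2 gate took 18.4% of cells in CD3e-/- TAC and 9.97% in WT TAC, and 4.19% and 2.4% in the sham groups. The part of these shares in the parent gate ratios was not tested. Each group was 1 hashtag group, so these differences were not tested.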

How the results depend on the processing

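The count of members past 1.5-fold between WT TAC and WT sham was 1 with all gate limits at 2 times, 0 with 50 CPM added, 1 with the 3 gates at equal weight and 1 in the double-low gate alone (chosen after seeing the data), beside 2 as reported. Between CD3e-/- TAC and sham it was 2 with equal weight, beside 4. The count of called members in the double-low gate was 2 without the low-count filter and 0 to 1 on leaving out 1 hashtag group, beside 1. On leaving out 1 hashtag group the counts were 8 to 9 in the Ly6c2 gate, 4 in the Cd209a gate, 9 to 10 in the Xcr1 gate and 4 to 7 in the Cd79a gate. Over all counts and alternatives 96 values stayed within 1.5 times and 9 did not, and no direction of a called member reversed. With DESeq2 the counts were 9, 1, 5, 10 and 6 in the Ly6c2, double-low, Cd209a, Xcr1 and Cd79a gates. The causes of the changes were not tested.

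No paired analysis was possible because each condition was 1 hashtag group, while the gate tests already held the hashtag group as a block. Differences between conditions rest on 1 pooled sample each, so they cannot be told apart from differences between pools, and intervals from counts say nothing of the spread between mice. The Lyve1 gate of CD3e-/- TAC held 15 cells and the Xcr1 gate 13, which limits both.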

Other observations

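Cells outside every gate (197, 121, 193, 102 and 112 cells), a mixture of cell types, had *H2-Q7* at 498, 339, 539, 408 and 533 CPM and *Nlrc5* at 40.2, 45.4, 53.9, 50.2 and 71.2 CPM. *H2-K1* had 2007, 1439, 2413, 2034 and 2045 CPM in these cells, and *B2m* 3131, 2380.2, 5051, 4064 and 4282 CPM. For both genes the 3 TAC groups lay above both sham groups. Over the 5 groups the summed markers there were 475 to 4344 CPM for fibroblasts, 7.64 to 2194 CPM for neutrophils, 557 to 1835 CPM for monocytes, 211 to 1589.7 CPM for innate lymphoid cells, 456 to 723 CPM for NK cells and 12.6 to 757 CPM for T cells. Their part in these values was not tested.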
